A study of Mus musculus with 6 samples.

Results

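Cyclic nucleotide phosphodiesterases, with a pair of regulatory subunits of the cAMP-dependent protein kinase (PKA), were followed in leukemic blasts from mouse bone marrow. The genes are Pde1b, Pde2a, Pde3b, Pde4a, Pde4b, Pde4d, Pde7a, Pde8a, Prkar1a and Prkar2b. They were found by matching the Ensembl identifiers of the deposited count table to symbols in the GENCODE mouse M21 annotation. Of these 10 genes, 9 had a row, among 35932 rows in all, and all 9 passed the filter on low counts. The M21 identifier of Pde2a, the cGMP-stimulated phosphodiesterase, matched no row, so Pde2a is not analysed here as such. The table has a row for Gm45837, a gene that M21 places over the same locus and strand, with 95.6% of its exon bases inside Pde2a exons, so reads of Pde2a may have been counted there. Gm45837 had 65.4, 77 and 72.2 CPM (read counts scaled to a common library total) in resistant libraries, against 87.3, 99.9 and 99.8 CPM in sensitive ones. The genes were picked from the measured difference between the groups compared below, so their differences are given as a description. How many crossed the threshold used for all genes is stated beside the share of all genes that did, and nothing is supported with it.

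The blasts carried MLL-AF9, a fusion oncogene of acute myeloid leukemia, and RNA sequencing was done on 6 libraries. In 3 libraries the blasts were called chemotherapy-resistant and labelled with cytarabine plus doxorubicin, a nucleoside analog and an anthracycline. In the other 3 the blasts were called chemotherapy-sensitive and labelled with vehicle. All 6 libraries share the MLL-AF9 genotype. Resistance and drug exposure go together in every library and cannot be told apart. The labels give no dose, harvest time, mouse strain or age, and do not say how the fusion was introduced or whether replicates were separate animals. P-values are therefore set by library-to-library spread that could be technical. Libraries held 22206341 to 31856009 counts, and 17825 to 18654 genes had a count in a library; 13414 genes were tested, of which 2475 were higher and 2785 lower in resistant blasts.

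cAMP is made by adenylyl cyclases after hormone receptors activate the stimulatory G protein, and it releases the catalytic subunits of PKA from their regulatory subunits. Phosphodiesterases end the signal by hydrolysing cAMP or cGMP. The PDE4, PDE7 and PDE8 families are specific for cAMP, PDE3 hydrolyses cAMP and is inhibited by cGMP, and PDE1 is activated by calcium and calmodulin and acts on both nucleotides. PDE4 enzymes are the main cAMP phosphodiesterases of many leukocytes, and the type II regulatory subunits of PKA are tethered in the cell by A-kinase anchoring proteins.

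CREB, the transcription factor that PKA activates, binds the element TGACGTCA, so the RefSeq promoter windows of the 10 genes (250 bases before to 50 bases after each start, build GRCm38.p6) were searched for TGACGTCA and for its core TGACG, on both strands; every TGACGTCA also holds TGACG. Windows were found for 8 genes, 25 in all, and not for Pde3b and Pde7a. The full element was in 2 of the 25 windows, against 1.79% of 32851 windows of all genes. Both were Prkar1a windows that overlap at the same site. The core was in 7 of the 25 windows (28.0%), against 20.8% of all windows. The single Pde4d window and the windows of Pde1b and Prkar2b held neither string. The sites shown are the full element of Prkar1a and the cores of the measured phosphodiesterases that hold one. Those phosphodiesterases were all lower in resistant blasts. So was Prkar2b, which held neither string, while Prkar1a, which held both, overlapped between the groups. All these genes were chosen on the difference between the groups. Pde3b and Pde7a had no window, and the number of windows differed by gene (4 for Pde4b, 3 for Pde4a and Pde1b, 1 for Pde4d and Pde8a). A link between sites and direction was not tested. The matched letters are in capitals (CGTCA is TGACG read on the other strand).
Prkar1a, chr11:109650889-109650918, plus strand: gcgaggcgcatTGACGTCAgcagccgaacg
Pde4b, chr4:102421509-102421538, plus strand: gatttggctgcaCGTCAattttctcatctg
Pde8a, chr7:81213169-81213198, plus strand: gctgctttgcatTGACGccagcagccgctg
Pde4a, chr9:21184039-21184068, plus strand: ggcacagctcgaCGTCAggctggggaggag
A match is a string of letters in these windows and does not show binding.

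Among the phosphodiesterases, Pde4d was 3.23-fold higher in resistant blasts while its relative Pde4b was at 0.497 of its sensitive level. Pde8a stood at 0.567 of the sensitive level, and the PKA subunit gene Prkar2b at 0.568. Pde3b, the most abundant phosphodiesterase mRNA measured per exon length, was 1.19-fold higher. In all, 6 of the 9 genes crossed the threshold applied to all genes (edgeR quasi-likelihood, adjusted p under 0.05), 2 higher and 4 lower, against 39.2% of the 13414 genes tested, 18.5% higher and 20.8% lower. Values of the groups did not overlap in 7 of the 9 genes, against 52.4% of genes tested, and in 2 of the 9, Pde4d and Pde4b, they also differed over 2-fold, against 7.97%. The genes were chosen on this same difference, so nothing is read from these counts. Their median log2 fold change was -0.04, and that of all genes tested -0.01. The genes lie on mouse chromosomes 13 (Pde4d), 4 (Pde4b), 9 (Pde4a), 7 (Pde3b and Pde8a), 15 (Pde1b), 3 (Pde7a), 11 (Prkar1a) and 12 (Prkar2b). Values are CPM after TMM scaling, and fold changes are resistant over sensitive.

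**Figure D1:**
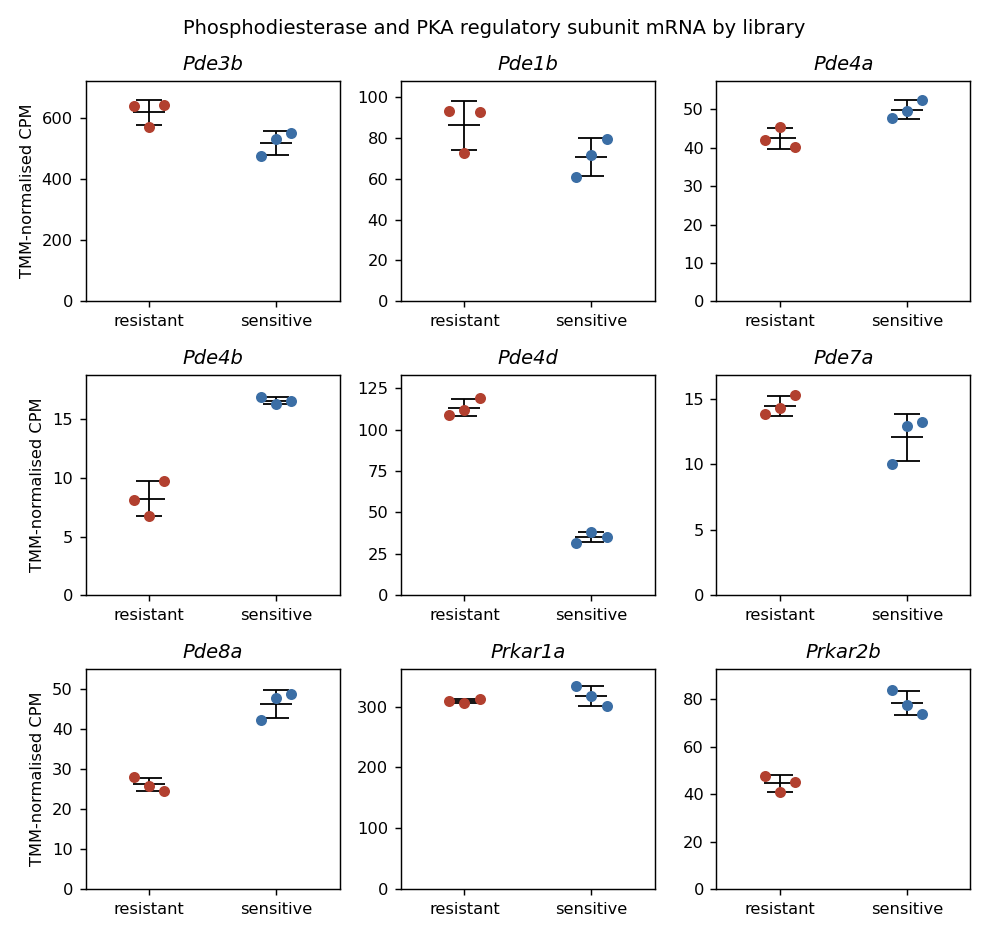
TMM-normalised CPM (vertical axis, from 0) of the 9 measured genes in each library; points are libraries, with the mean and SD of 3 libraries in black. Pde4d lies at 109 to 119 CPM in resistant libraries, above 31.7 to 38.3 CPM in sensitive ones, whereas Pde4b, Pde8a and Prkar2b lie lower in resistant libraries and Prkar1a overlaps.

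The PDE4 genes encode cAMP-specific enzymes that differ in their regulatory domains and partners. Pde4d had 109, 112 and 119 CPM in the resistant libraries, against 31.7, 38.3 and 35.4 CPM in the sensitive ones. All resistant values lay far above all sensitive ones. The means were 113 ± 4.93 and 35.1 ± 3.32 CPM (SD, n = 3 each), and the log2 fold change was 1.69 ± 0.08 (SE).

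Pde4b, the PDE4 gene tied to inflammatory signalling in mouse monocytes and macrophages, had 8.13, 6.78 and 9.75 CPM in the resistant libraries, against 16.9, 16.3 and 16.6 CPM in the sensitive ones. The resistant values were spread more widely than the sensitive ones and all lay below them. The log2 fold change was -1.01 ± 0.13 (SE), from at least 149 counts in any library.

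Pde4a had 42, 45.5 and 40.1 CPM in the resistant libraries, against 47.7, 49.5 and 52.5 CPM in the sensitive ones. The groups did not overlap, but the gap was small beside that of the other PDE4 genes (log2 fold change -0.23 ± 0.07 SE). Pde4c, the fourth gene of the subfamily, had 6 to 22 counts in a library, at 0.426 ± 0.232 CPM in resistant and 0.577 ± 0.111 CPM in sensitive blasts (SD, n = 3 each), and did not pass (edgeR adjusted p = 0.480).

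Levels of different genes were compared per kilobase of exon. Summed over the 4 PDE4 genes, the level was 15.9 ± 0.338 CPM per kilobase in resistant and 11.1 ± 0.495 in sensitive blasts. Pde4d made up 59.5% ± 1.62 of that sum in resistant blasts and 26.3% ± 1.74 in sensitive blasts. Pde4a made up 35.1% ± 2.37 and 58.6% ± 1.23, and Pde4b 4.91% ± 0.860 and 14.2% ± 0.829, in the same order (SD, n = 3 each). The most abundant PDE4 mRNA was thus Pde4d in all resistant libraries and Pde4a in all sensitive ones. With the longest transcript as the length, Pde4d took 70.7% ± 1.17 in resistant and 36.1% ± 2.09 in sensitive blasts, and Pde4a remained the larger share in sensitive blasts at 46.5% ± 1.36. The count table holds no isoforms, so short and long forms of these enzymes are not separated.

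**Figure D2:**
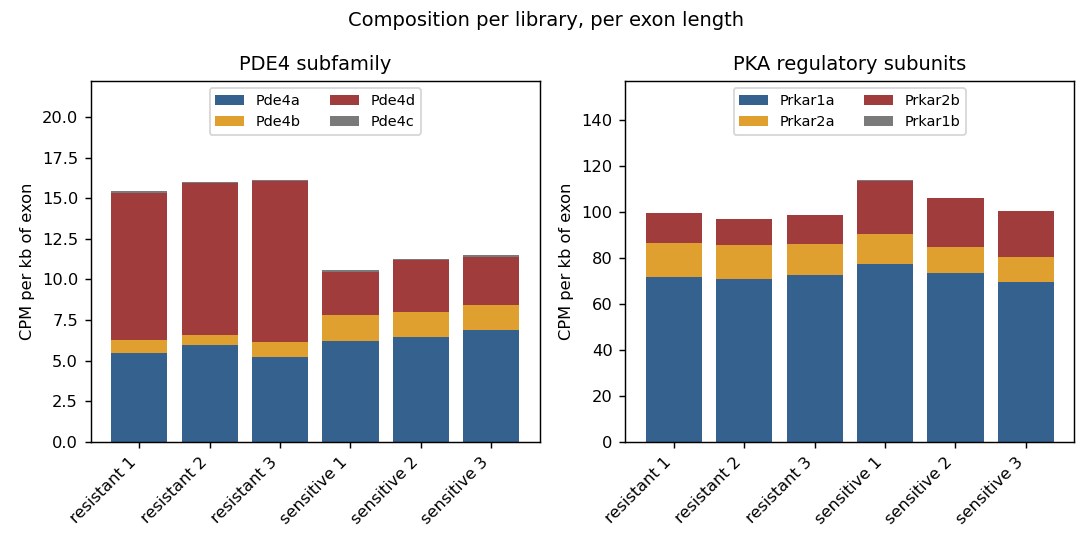
Level per kilobase of exon (vertical axis, CPM per kb) in each library, stacked by gene, for the PDE4 subfamily (left) and the PKA regulatory subunits (right). The Pde4d part is the largest in resistant libraries and the Pde4a part in sensitive ones; the Prkar2b part is thinner in resistant libraries.

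Outside PDE4, Pde8a encodes a high-affinity cAMP phosphodiesterase. It had 28, 25.8 and 24.6 CPM in the resistant libraries, against 42.2, 47.7 and 48.8 CPM in the sensitive ones. The lowest sensitive library was well above the highest resistant one (log2 fold change -0.82 ± 0.08 SE). Its paralog Pde8b was at 3.15 ± 0.385 CPM in resistant and 2.77 ± 0.161 CPM in sensitive blasts (SD, n = 3 each) and did not pass (edgeR adjusted p = 0.433).

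Pde3b, known for its part in insulin and catecholamine control of fat cells, had 641, 573 and 645 CPM in the resistant libraries, against 476, 532 and 553 CPM in the sensitive ones. The groups did not overlap, with resistant library 2 close to the highest sensitive value (log2 fold change 0.25 ± 0.07 SE). Its paralog Pde3a had 0 counts in all 6 libraries, which allows up to 3 counts, or 0.0945 to 0.137 CPM, in each.

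Pde1b, the calcium-dependent member, had 93.1, 72.4 and 92.7 CPM in the resistant libraries, against 60.7, 71.8 and 79.3 CPM in the sensitive ones. The groups overlapped, because resistant library 2 lay below the highest sensitive library (log2 fold change 0.29 ± 0.11 SE). Pde7a, a cAMP-specific enzyme of lymphoid and myeloid cells, had 13.8, 14.3 and 15.3 CPM in the resistant libraries, against 10, 12.9 and 13.2 CPM in the sensitive ones. The groups did not overlap, but the gap between them was narrower than the spread within the sensitive group (0.26 ± 0.12 SE). Exons of Pde7a overlap those of an antisense gene, Gm16093, over 48 bases, and that gene had under 0.05 CPM on average in either group.

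Per kilobase of exon, Pde3b had the highest level of the phosphodiesterases that degrade cAMP in both groups, at 68 ± 4.44 in resistant and 57.1 ± 4.35 CPM per kilobase in sensitive blasts (SD, n = 3 each). Pde3b gave 62.5% ± 0.271 of the sum over 10 tested phosphodiesterase genes in resistant and 60.2% ± 0.258 in sensitive blasts; this sum leaves out Pde2a and the visual PDE6 genes. The sum itself was 109 ± 6.66 in resistant and 94.9 ± 7.61 CPM per kilobase in sensitive blasts, a ratio of 1.15. Resistant library 2 and sensitive library 3 were both at 101, so the groups were not separated. With the Gm45837 row counted as well, an alternative chosen after seeing the data, the ratio was 1.07 and the share of Pde3b was 53.9% ± 1.22 in resistant and 48.4% ± 0.207 in sensitive blasts. The sums then overlapped, with resistant library 2 at 120 and sensitive library 3 at 125. By the longest transcript, without Gm45837, the ratio was 1.22 and the sums did not overlap (resistant library 2 at 152, sensitive library 3 at 143). The share of Pde3b was then 57.8% ± 0.573 in resistant and 59.1% ± 0.101 in sensitive blasts, so its direction depends on the length used. On average per kilobase, Gm45837 stood above Pde1b and below Pde3b, at 17.3 in resistant and 23.1 CPM per kilobase in sensitive blasts. In resistant library 1 it was below Pde1b, at 12.3% against 13.5% of the sum that includes Gm45837. In resistant blasts the order below Pde3b was Pde1b, Pde4d, Pde8a, Pde4a, Pde7a and Pde4b, with no overlap between neighbours. In sensitive blasts it was Pde1b, Pde8a, Pde4a, Pde4d, Pde4b and Pde7a. There the ranges of Pde1b and Pde8a overlapped, as did those of Pde4b and Pde7a. Without Gm45837, Pde4d thus had the third level of these genes in resistant and the fifth in sensitive blasts. The order depends on the length used: by the longest transcript, Pde4d in resistant blasts (26.9) was above Pde1b (20.4 CPM per kilobase).

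PKA is a tetramer of catalytic and regulatory subunits. Prkar2b, the RIIβ regulatory subunit gene, had 47.7, 40.8 and 45 CPM in the resistant libraries, against 83.9, 77.6 and 73.6 CPM in the sensitive ones. The groups lay far apart relative to their spread (log2 fold change -0.81 ± 0.08 SE). Prkar1a, the RIα subunit gene, had 309, 306 and 313 CPM in the resistant libraries, against 334, 318 and 301 CPM in the sensitive ones. These values overlapped, and the resistant ones lay within the sensitive range (log2 fold change -0.04 ± 0.05 SE).

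Prkar2a, the other type II subunit gene and not among the chosen genes, rose in resistant blasts, to 91.1 ± 3.80 CPM, against 74.4 ± 8.79 CPM in sensitive blasts (log2 fold change 0.29 ± 0.08 SE, edgeR adjusted p = 0.0160). Of the summed type II mRNA per kilobase, Prkar2b made up 46% ± 2.30 in resistant and 64.8% ± 1.16 in sensitive blasts. The 4 regulatory subunit genes together stood at 98.4 ± 1.28 in resistant and 107 ± 6.65 CPM per kilobase in sensitive blasts, a ratio of 0.922. The catalytic subunit genes did not pass: Prkaca had 77.8 ± 5.49 CPM in resistant and 71.9 ± 0.726 CPM in sensitive blasts (edgeR adjusted p = 0.189), and Prkacb 225 ± 7.34 and 209 ± 9.89 CPM in the same order (edgeR adjusted p = 0.168; SD, n = 3 each).

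Genes of PKA inhibitor peptides, which bind the free catalytic subunit, went in opposite directions. Pkib had 95.3, 84.7 and 96.6 CPM in the resistant libraries, against 46.4, 51.6 and 49.8 CPM in the sensitive ones. All resistant values were above all sensitive ones (log2 fold change 0.90 ± 0.07 SE, edgeR adjusted p = 6.35e-06). Pkig fell to 28.2 ± 1.09 CPM in resistant blasts, against 37.5 ± 1.46 CPM in sensitive blasts (-0.41 ± 0.07 SE, edgeR adjusted p = 0.00124). Of 6 tested PKA genes outside the chosen ones, 3 were higher, 1 lower and 2 did not pass. The third higher gene was Prkar1b, near 1 CPM (0.96 ± 0.32 SE, edgeR adjusted p = 0.0356). The call of Prkar2a was lost on leaving out resistant library 1, or sensitive library 2 or 3 (adjusted p up to 0.0762). That of Prkar1b was lost without any library other than resistant library 1 (up to 0.128), and with DESeq2 (0.113).

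**Figure D3:**
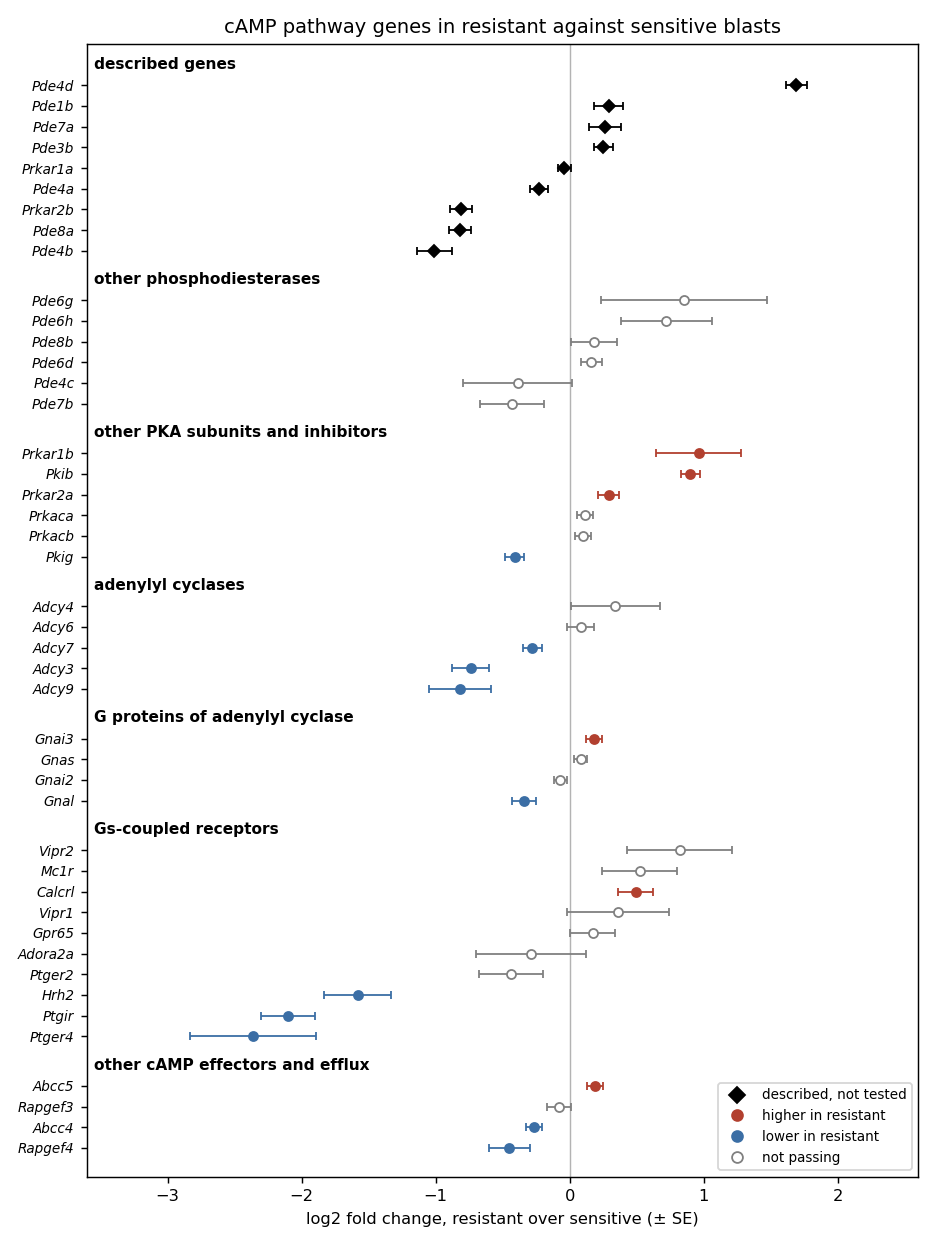
Log2 fold change, resistant over sensitive, with its SE (horizontal axis) for the 9 described genes (black diamonds) and for all but 1 of the tested genes of 6 pathway lists (circles, filled where the edgeR test over all genes was passed). Pde4d, at 1.69, has the largest rise among the described genes, and the falls of Ptger4, Ptgir and Hrh2 are larger than that of any phosphodiesterase.

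The rest of the phosphodiesterase family held no call. Of 16 further phosphodiesterase genes, 10 were below the filter on low counts, and of the 6 tested, 0 passed by edgeR. At an unadjusted p under 0.05 the edgeR count was also 0, and DESeq2 called 0 of them. Pde6c, a cone photoreceptor gene below the filter, passed where the filter was dropped. The only one of the 16 above 5 CPM was Pde6d, which encodes a prenyl-binding chaperone rather than a catalytic subunit, at 84.7 ± 9.73 CPM in resistant and 75.9 ± 3.09 CPM in sensitive blasts (edgeR adjusted p = 0.143).

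Upstream of cAMP, 3 of 5 tested adenylyl cyclase genes were lower in resistant blasts and 2 did not pass. Adcy7, the main adenylyl cyclase mRNA in these blasts per kilobase of exon, had 165, 156 and 133 CPM in the resistant libraries, against 181, 186 and 185 CPM in the sensitive ones. Resistant library 3 was the lowest and the groups did not overlap (log2 fold change -0.28 ± 0.07 SE, edgeR adjusted p = 0.0110). Adcy3 fell to 7.77 ± 1.55 CPM in resistant blasts, against 13 ± 1.05 CPM in sensitive blasts (edgeR adjusted p = 0.00229). Adcy9 fell to 1.34 ± 0.233 CPM, against 2.35 ± 0.343 CPM in sensitive blasts (edgeR adjusted p = 0.0163); its call was lost on leaving out resistant library 1, or sensitive library 1 or 3 (up to 0.0595).

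Of 11 tested genes of receptors that raise cAMP through the stimulatory G protein, 1 was higher, 3 lower and 7 did not pass. Ptgir, the prostacyclin receptor gene, had 1.7, 1.91 and 1.13 CPM in the resistant libraries, against 6.4, 7.37 and 6.61 CPM in the sensitive ones. The groups were far apart (log2 fold change -2.10 ± 0.20 SE, edgeR adjusted p = 2.12e-05). Ptger4, the EP4 receptor gene for prostaglandin E2, had only 15, 10 and 1 counts in the resistant libraries, against 48, 41 and 56 counts in the sensitive ones. The ratio of summed counts, scaled for depth, was 0.194 (exact 95% interval 0.122 to 0.296, counting error only; edgeR adjusted p = 0.00282). Hrh2, the histamine H2 receptor gene, fell to 0.659 ± 0.0737 CPM in resistant blasts, against 1.98 ± 0.315 CPM in sensitive blasts (edgeR adjusted p = 0.000755). Calcrl, a receptor gene for CGRP and adrenomedullin, rose to 50.4 ± 10 CPM in resistant blasts, against 36 ± 2.68 CPM in sensitive blasts (edgeR adjusted p = 0.0121); its call was lost without sensitive library 2 or resistant library 1 (up to 0.0567).

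The stimulatory G protein gene Gnas did not pass, at 900.0 ± 38.9 CPM in resistant and 848 ± 14.7 CPM in sensitive blasts (edgeR adjusted p = 0.194). Of 4 tested G protein genes, Gnai3, an inhibitory subunit gene, was higher (0.18 ± 0.06 SE, edgeR adjusted p = 0.0307) and Gnal, a stimulatory one, lower (-0.34 ± 0.09 SE, edgeR adjusted p = 0.0140). The call of Gnai3 was lost with library totals as the scale (0.0569) and on leaving out resistant library 1 or 3, or sensitive library 2 or 3 (up to 0.130), and that of Gnal on leaving out resistant library 1, or sensitive library 2 or 3 (up to 0.0645).

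Of 4 tested genes of other cAMP effectors and of efflux, 1 was higher, 2 lower and 1 did not pass. Abcc4, which exports cyclic nucleotides, fell to 52.1 ± 1.24 CPM in resistant blasts, against 62.6 ± 3.01 CPM in sensitive blasts (edgeR adjusted p = 0.00717). Abcc5, another cyclic nucleotide exporter gene, was higher (0.19 ± 0.06 SE, edgeR adjusted p = 0.0310), a call lost with library totals as the scale (0.0676) and on leaving out resistant library 1, or sensitive library 2 or 3 (up to 0.153). Rapgef3, which encodes the cAMP-activated exchange factor EPAC1, did not pass (-0.08 ± 0.09 SE, edgeR adjusted p = 0.517). Its relative Rapgef4 was lower (-0.45 ± 0.15 SE, edgeR adjusted p = 0.0377), and that call was lost without any library other than resistant library 1 (up to 0.115), with DESeq2 (0.0912) and with no low-count filter (0.0596). On the cGMP side 2 of 11 genes were tested, and 1 of them passed: Npr1, a natriuretic peptide receptor with cyclase activity, rose to 6.66 ± 1.17 CPM in resistant blasts, against 2.6 ± 0.558 CPM in sensitive blasts (edgeR adjusted p = 0.000430).

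Downstream, 5 of 13 tested A-kinase anchoring genes were higher, 2 lower and 6 did not pass. Akap9 rose to 255 ± 23.6 CPM in resistant blasts, against 187 ± 4.66 CPM in sensitive blasts (edgeR adjusted p = 0.000603). Akap8 was higher (0.34 ± 0.06 SE, edgeR adjusted p = 0.00178) and its relative Akap8l lower (-0.35 ± 0.07 SE, edgeR adjusted p = 0.00257). Akap6 had 20, 13 and 24 counts in the resistant libraries, against 2, 3 and 2 counts in the sensitive ones, a ratio of 8.80 (exact 95% interval 4.01 to 22.9, counting error only; edgeR adjusted p = 0.000508).

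The CREB group had 2 of 11 genes higher, 2 lower and 7 not passing. Creb1 stood at 119 ± 17.9 CPM in resistant and 144 ± 9.21 CPM in sensitive blasts (edgeR adjusted p = 0.0499); the call was lost with RLE scaling (0.0522) and without any library other than resistant library 1 (up to 0.171). Crtc3, a CREB coactivator gene, was lower (-0.26 ± 0.06 SE, edgeR adjusted p = 0.00877). Atf1, a CREB relative, was higher (0.22 ± 0.08 SE, edgeR adjusted p = 0.0473), as was the kinase gene Sik3 (0.21 ± 0.06 SE, edgeR adjusted p = 0.0231). Both calls were lost with library totals as the scale, at 0.0797 for Atf1 and 0.0562 for Sik3. The call of Atf1 was also lost on leaving out resistant library 1 or 3, or sensitive library 2 or 3 (up to 0.192), and that of Sik3 without resistant library 1 or any sensitive library (up to 0.0744). Crem, whose short product ICER is induced by cAMP, did not pass, at 2.64 ± 0.0914 CPM in resistant and 2.46 ± 0.521 CPM in sensitive blasts (edgeR adjusted p = 0.704).

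Textbook targets of CREB went both ways, with 3 of 10 higher, 4 lower and 3 not passing. Per1, a clock gene, rose to 36 ± 4.27 CPM in resistant blasts, against 20.2 ± 1.04 CPM in sensitive blasts (edgeR adjusted p = 8.63e-05). Rgs2, a regulator of G protein signalling, fell to 63.8 ± 2.91 CPM, against 115 ± 8.32 CPM in sensitive blasts (edgeR adjusted p = 6.71e-06). Btg2, an antiproliferative gene, fell to 9.57 ± 1.41 CPM, against 18.6 ± 2 CPM in sensitive blasts (edgeR adjusted p = 0.000249). Fosb, an immediate-early gene, had 38, 19 and 19 counts in the resistant libraries, against 7, 2 and 3 counts in the sensitive ones (ratio 6.84, exact 95% interval 3.70 to 13.8, counting error only; edgeR adjusted p = 0.000919). The fitted log2 fold change of Fosb, 2.72, was 3.35 without sensitive library 1. Over all 10 pathway lists, 17 of 72 tested genes were higher, 18 lower and 37 did not pass, and the median log2 fold change was 0.08, against -0.01 over all genes tested. The share called, higher or lower, is to be read against 18.5% and 20.8% of all genes.

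Over the 6 libraries, the genes whose pattern was closest to that of Pde4d were Mtcl1, Prss30 and Gpat3, with root mean square differences in centred log2 CPM of 0.0465, 0.101 and 0.104 among 10904 genes. Mtcl1 had 26.8 CPM in resistant and 8.72 CPM in sensitive blasts on average. For Pde4b they were Zfp608, Smoc1 and Acot1, at 0.0805, 0.0849 and 0.0887. Zfp608 had 31 CPM in resistant and 63.9 CPM in sensitive blasts on average. The measure includes the difference between the groups as well as the spread within them.

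Markers of some other cell types also differed between the groups, and their part in the results was not tested. The summed neutrophil maturation markers (14 genes, 11 of 12 tested lower) ranged over 56.6 to 73.3 CPM in resistant and 294 to 316 CPM in sensitive libraries. The monocyte and macrophage markers (12 genes, 2 higher and 5 lower) ranged over 646 to 768 and 994 to 1140 CPM, in the same order. The lower sum lay in Ly6c2, at 264 CPM in resistant and 681 CPM in sensitive blasts on average. The 2 higher genes were Vcam1 (240 and 161 CPM) and Cd14. Eosinophil, basophil and mast cell markers (11 genes, 2 higher and 3 lower) ranged over 485 to 647 CPM in resistant and 235 to 279 CPM in sensitive libraries. That rise lay mainly in the 2 higher genes, Prg2 (301 and 71.8 CPM) and Prg3 (166 and 41.6 CPM). The 3 lower ones were Cpa3, Mcpt8 and Ms4a2. The erythroid markers (9 of 12 with a row, 7 of 8 tested lower) ranged over 1.29 to 3.19 CPM in resistant and 47.2 to 82.2 CPM in sensitive libraries. None of these 4 lists held a gene at 0 counts in all libraries. B cell markers summed to 38.9 to 41.4 and 39.5 to 42.9 CPM, T and NK cell markers to 3.97 to 5.78 and 5.57 to 7.29 CPM, and megakaryocyte and platelet markers, with Gp6 among those at 0, to 12.7 to 14.5 and 13.8 to 15.2 CPM. Within these lists the T cell gene Cd8a and the platelet gene Itga2b were called lower, and the platelet gene Gp1ba higher. Stromal and endothelial markers, with Emcn at 0, reached at most 1.41 CPM. For the labelled cell type, all 12 myeloid blast markers were detected and tested, with summed levels of 3580 to 4110 CPM in resistant and 4030 to 4580 CPM in sensitive libraries. Of them Hoxa9 and Cd34 were higher, Cebpa, Flt3, Itgam, Kit, Csf2rb and Fcgr3 lower, and Mpo, Spi1, Ptprc and Meis1 did not pass. Cebpa, a myeloid transcription factor gene, differed most, at 25.3 ± 3.55 CPM in resistant and 95.8 ± 6.10 CPM in sensitive blasts (SD, n = 3 each; edgeR adjusted p = 3.15e-07). In bulk RNA, fewer cells of a type and less of an mRNA per cell cannot be told apart.

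The fold changes of the described genes were recomputed under 14 alternatives, among them each library left out in turn. Pde4d stayed between 1.62 and 1.75 on the log2 scale, Pde4b between -1.14 and -0.89, Pde8a between -0.88 and -0.77, and Prkar2b between -0.87 and -0.75. Pde3b ranged from 0.19 to 0.31, Pde4a from -0.27 to -0.18, Pde1b from 0.19 to 0.40 and Pde7a from 0.15 to 0.34. These genes were chosen on the same libraries, so the ranges show how the values move with the processing and lend no support to a difference.

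**Figure D4:**
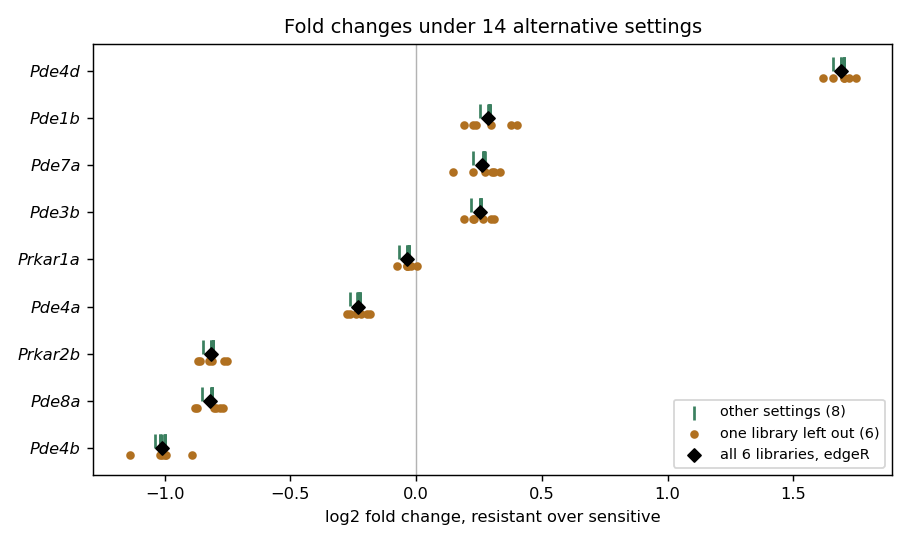
Log2 fold change of each described gene, resistant over sensitive (horizontal axis), with all 6 libraries (diamond), with each library left out (points) and under 8 other settings (bars). Pde4d, Pde4b, Pde8a and Prkar2b stay clear of 0 throughout, and Prkar1a crosses it.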

How the data were processed

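RNA sequencing counts per gene from 6 libraries of bone marrow blasts were used. The authors deposited a table of whole-number raw counts with Ensembl identifiers; the submitters' processing notes name TopHat2, RSEM and mm9, without roles or versions. The counts may therefore be rounded RSEM estimates, and the sources used here do not state the annotation, strand setting or handling of shared reads. Of 35932 identifiers, 31655 matched GENCODE M21, which supplied symbols and exon lengths. All later steps were computed here. They used edgeR 4.0.16 (R 4.3.3) with filterByExpr, TMM scaling and the quasi-likelihood test. P-values were adjusted by Benjamini-Hochberg across the 13414 tested genes (threshold 0.05). The procedure was also run on simulated data with far fewer changed genes than were called here, and nothing is read from it. Totals were 22206341 to 31856009 counts per library, so 3 counts, the limit that a count of 0 allows, equal 0.0945 to 0.137 CPM; intervals and this limit cover counting error only. Levels per kilobase used the union of exons. Groups came from the sample titles.

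The genes described and the gene lists were chosen with earlier results of these data known. Named genes are the 10 chosen genes, up to 4 called genes with the smallest adjusted p of each pathway list, a panel of 11 pathway genes, 1 of which is not reported here, and the 3 genes most like the largest rise and fall; Pde3a, Pde4c, Pde6c, Pde6d, Pde8b, Gm45837 and the cell type markers were named after their values were seen. The 14 alternatives were RLE, upper quartile and no scaling, DESeq2 1.42.0, limma-voom (limma 3.58.1), no or a CPM filter, a replicate block, and each library left out.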

Additional observations from a re-analysis of the deposited data

How the results depend on the processing

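Under 14 alternatives the number of described genes past the threshold, 6 of 9 with all libraries, ranged from 4 to 7 and was lowest without resistant library 3. Calls over all genes were also fewer there, with 2165 higher and 2367 lower of 13822 tested. With all libraries they were 2475 and 2785 of 13414. The described genes were chosen on these values, so their number supports nothing. Prkar1a changed sign without sensitive library 1, to 0.00217 on the log2 scale, and ranged from -0.0758 to 0.00217 with a library left out. With a library left out, genes higher in resistant blasts numbered 1641 to 2521, the lowest without sensitive library 2, and pathway genes higher 9 to 17, with 9 without sensitive library 2 or 3 and 10 without resistant library 1, against 17 with all libraries. The causes were not tested. The summed phosphodiesterase ratio of 1.15 was 1.22 by the longest transcript. It was 1.07 with the Gm45837 row counted, an alternative chosen after seeing the data. Same-numbered libraries did not deviate together over all tested genes (r = 0.04, -0.01 and -0.09), and differently numbered ones gave -0.06 to 0.07. A correlation over all genes cannot exclude a pairing that acts on few of them. A replicate block gave 2497 higher and 2824 lower genes. It called 16 pathway genes higher and 17 lower, against 17 and 18 without the block. Rapgef4 was among the calls lost (edgeR adjusted p = 0.0624). Of the described genes 7 crossed the threshold with the block, against 6 without it. Depth limits genes with few counts, such as Ptger4 and Akap6.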
